A study of Mus musculus with 13 samples.

Results

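The collagens of fibrous tissue described here are the products of 7 genes. Col1a1 and Col1a2 encode the chains of type I collagen, Col3a1 encodes type III, Col5a1 and Col5a2 encode chains of type V, and Col12a1 and Col14a1 encode the fibril-associated types XII and XIV. All probe sets annotated with exactly 1 of these gene symbols were taken, which gave 19 of the 45037 probe sets tested and 7 of the 18193 genes named. The RNA came from presumptive intervertebral disc (IVD) and vertebrae, taken by laser capture from the lumbar region of mouse embryos at E13.5, and was measured on 13 Affymetrix arrays. The groups were mutant IVD (4 arrays), control IVD (3 arrays), mutant vertebrae (3 arrays) and control vertebrae (3 arrays). Mutant arrays were labelled Cre+;Tgfbr2lox/lox for IVD and, in another spelling, Cre+;Tgrbr2lox.lox for vertebrae, with Cre under the Col2a promoter deleting the type II receptor of TGF-β. Control arrays were labelled Cre-;Tgfbr2lox/wt, so they carried a floxed allele without Cre. By the study's methods the IVD captures held annulus fibrosus precursors for the most part, and some notochord. The control mice gave both tissues, and each array started from 50 ng of RNA.

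Fibrillar collagens are triple helices that pack side by side into the fibrils that carry tension in tendon, skin, bone and the annulus fibrosus. Type I forms the bulk of these fibrils, types III and V co-assemble with it and limit fibril thickness, and types XII and XIV bind the fibril surface. Cartilage, which forms the vertebral anlagen at this stage, is built on type II fibrils with types IX and XI instead, and TGF-β is a known inducer of fibrillar collagen synthesis in fibroblasts.

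Promoter sequences of RefSeq were found for 3 of the 7 genes, Col1a2, Col3a1 and Col5a1, and all 3 are shown. These genes behaved differently on the arrays, which played no part in their choice. Col1a2 had no excess in control IVD, Col3a1 had among the widest differences between arrays, and Col5a1 had a smaller but steadier excess in control IVD. Each is the 250 bases before the transcript start used in the RefSeq table, from the GRCm38.p6 assembly and 5′ to 3′. The Col5a1 window reaches past the start of the annotated gene (27886381), so its last bases, which hold its CAGAC match, lie inside that gene. Capitals mark CCAAT, the letters of the CCAAT box, and CAGAC, the letters of a Smad-binding element, on either strand.
Col1a2, chr6:4505368-4505617, plus strand: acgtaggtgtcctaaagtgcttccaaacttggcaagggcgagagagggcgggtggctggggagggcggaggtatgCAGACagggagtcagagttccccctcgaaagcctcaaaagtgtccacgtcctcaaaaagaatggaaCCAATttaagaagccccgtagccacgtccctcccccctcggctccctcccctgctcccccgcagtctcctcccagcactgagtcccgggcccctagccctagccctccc
Col3a1, chr1:45311288-45311537, plus strand: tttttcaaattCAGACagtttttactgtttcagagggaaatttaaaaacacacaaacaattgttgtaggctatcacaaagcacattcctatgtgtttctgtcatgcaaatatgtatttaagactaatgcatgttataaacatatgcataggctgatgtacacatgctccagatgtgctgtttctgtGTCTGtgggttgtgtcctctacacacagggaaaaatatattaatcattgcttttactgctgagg
Col5a1, chr2:27886175-27886424, plus strand: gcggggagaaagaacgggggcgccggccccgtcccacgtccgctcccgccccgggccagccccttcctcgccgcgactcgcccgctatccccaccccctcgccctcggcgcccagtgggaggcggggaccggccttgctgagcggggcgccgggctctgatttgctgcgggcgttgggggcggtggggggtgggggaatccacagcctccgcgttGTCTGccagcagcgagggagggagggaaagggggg
CAGAC occurred in all 3 windows, 2 times in Col3a1 and 1 time each in Col1a2 and Col5a1, and it occurred in 42.2% of 32851 RefSeq promoter windows of the same length. CCAAT occurred only in the window of Col1a2, against 33.8% of all windows. GGGCGG, the letters of a GC box, occurred 2 times each in Col1a2 and Col5a1 (32.7% of all windows), and TATAAA occurred in Col3a1 alone of the 3 (12.4% of all windows). Both strands were searched for each motif, and no match overlapped another. These matches describe letters in the windows only.

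Each probe set was deposited as log2 signal after subtraction of its own median across the 13 arrays, so the values compare arrays, hold no abundance, and genes cannot be ranked by abundance. A gene value is the mean of its probe sets. Mutant vertebrae 1 stood apart, with 16% of all probe sets more than 2-fold from their medians against 1.56% to 4.63% in the other 12 arrays. The centred 3′ minus 5′ signal of Gapdh was 1.40 in mutant IVD 4, 1.14 in mutant vertebrae 1 and 1.10 in mutant IVD 1. It reached 0.49 at most elsewhere. For Actb these arrays had 0.72, -0.32 and -0.80, against -1.34 to 0.60 in control arrays. The part of RNA quality in the collagen values was not tested. Liver RNA (mean log2 value of 9 genes) was high in mutant IVD 3 (2.65), mutant IVD 4 (3.69), control IVD 1 (5.40) and control vertebrae 1 (5.59), and reached 0.26 at most elsewhere. Neuronal RNA (15 genes) was high in mutant IVD 3 (3.06) and control vertebrae 3 (2.42), and reached 0.64 at most elsewhere. Since the tissue was captured in bulk, fewer cells of a type and less RNA per cell cannot be told apart.

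Type I collagen was split between its chains. Col1a1, the major chain of type I, had gene values of 1.11, 0.12, -0.99 and 0.87 in mutant IVD 1 to 4 and of 0.36, 0.93 and 0.02 in control IVD 1 to 3. It had -1.34, -1.39 and 1.07 in mutant vertebrae and -0.50, -0.50 and -0.60 in control vertebrae. All 3 control IVD arrays therefore lay above all 3 control vertebrae arrays, whereas the mutant groups overlapped widely. Col1a2, the minor chain, had 0.48, -0.10, -0.39 and 0.10 in mutant IVD and 0.00, 0.15 and -1.24 in control IVD. In vertebrae it had -0.80, 0.29 and 0.999 in the mutant and 0.23, -0.22 and -0.74 in the control. Its groups overlapped in every comparison, and control IVD 3 held its lowest value of all.

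Type III collagen, a homotrimer of loose and fetal connective tissue, followed the arrays more than the groups. Col3a1 had 1.17, 0.86, -0.91 and 1.33 in mutant IVD and 1.14, 1.03 and -0.43 in control IVD. In vertebrae it had -2.65, -0.95 and 1.30 in the mutant and 0.00, -0.97 and -0.67 in the control. Mutant IVD 3 and mutant vertebrae 1 were low within their groups, mutant vertebrae 3 was nearly as high as the highest IVD array, and every pair of groups overlapped.

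The type V chains, which start fibrils and set their diameter, differed in how widely they moved. Col5a1 had 1.22, 0.35, -0.46 and 0.19 in mutant IVD and 0.23, 0.81 and 0.04 in control IVD. Mutant vertebrae had -0.68, -0.09 and 0.46, against -0.22, -0.16 and -0.71 in control vertebrae. The control tissues did not overlap for this gene, although control IVD 3 and control vertebrae 2 were close. Col5a2 had 1.24, 0.46, -1.003 and 0.75 in mutant IVD and 1.12, 1.499 and -0.27 in control IVD. Mutant vertebrae had -3.10, -0.93 and 1.48, and control vertebrae 0.00, -0.97 and -0.43. These groups overlapped, and the value in mutant vertebrae 1 was the lowest of any of the 7 genes.

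Of the fibril-associated collagens, the gene value of Col12a1 moved little between arrays and that of Col14a1 moved widely. The Col12a1 probe set 1434411_at nevertheless spanned 4.59. Col12a1 had 0.40, 0.20, -0.46 and -0.11 in mutant IVD and 0.05, 0.45 and 0.15 in control IVD. Mutant vertebrae had -0.48, -0.24 and 0.30, and control vertebrae -0.38, 0.02 and -0.18, so that the control tissues were apart by a narrow gap. Col14a1, whose product binds decorin and fibril surfaces, had 0.81, 0.75, -0.77 and 0.03 in mutant IVD and 0.59, 1.35 and 0.73 in control IVD. It had -2.29, -0.60 and -0.17 in mutant vertebrae and -0.17, 0.12 and -0.44 in control vertebrae. Every control IVD array was above every control vertebrae array, and all 3 mutant vertebrae arrays were below 0. The spread of arrays within groups was wider than the SD of the 4 group means for 6 of the 7 genes. Col14a1 was the exception, with a within-group SD of 0.72 against an SD of group means of 0.80. The same count was not made over all genes, so it does not set the members apart.

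**Figure D1:**
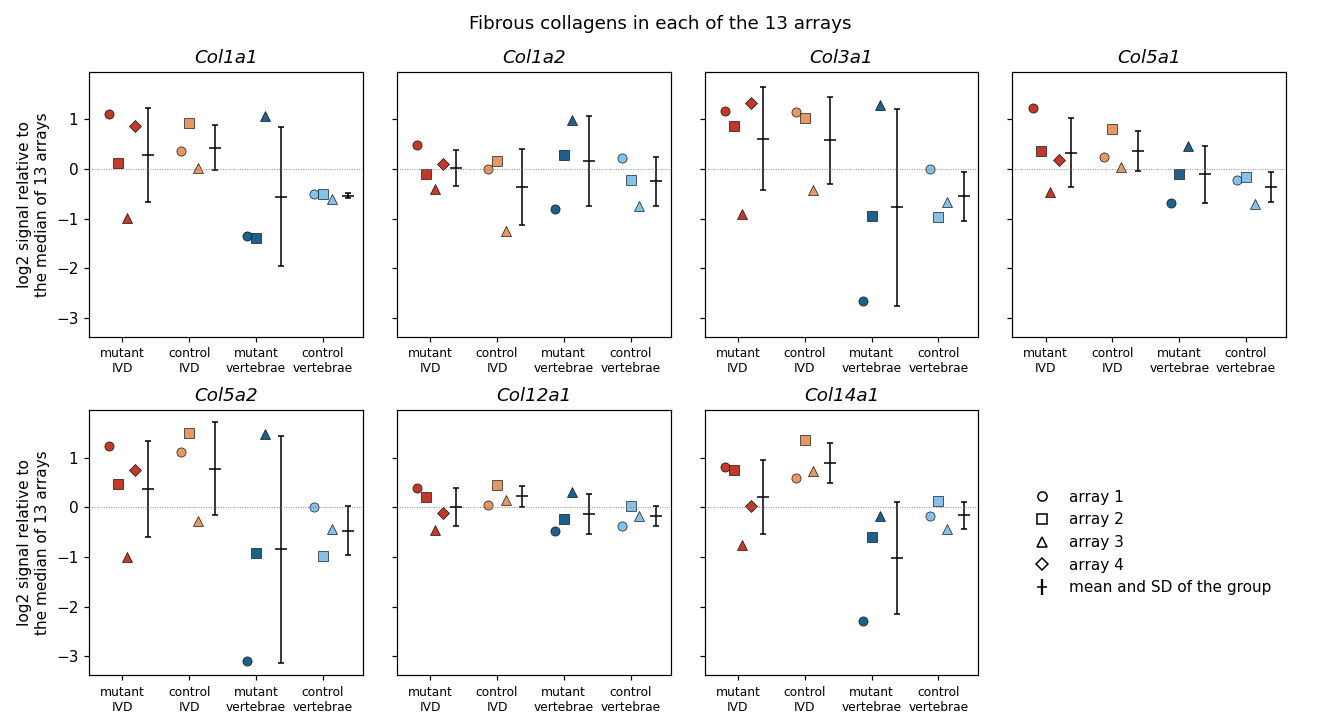
Gene values of the 7 collagens (vertical axis, log2 signal relative to the median of 13 arrays) in mutant IVD, control IVD, mutant vertebrae and control vertebrae, 1 symbol per array, with the mean and SD of each group to the right of its points. Mutant vertebrae 1 is lowest for Col3a1 (-2.65), Col5a2 (-3.10) and Col14a1 (-2.29), and mutant IVD 3 is the lowest of the IVD arrays for Col1a1, Col3a1, Col5a1, Col5a2, Col12a1 and Col14a1.

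The order of group means was the same at the top for 5 of the 7 genes, with control IVD first and mutant IVD after it for Col1a1, Col5a1, Col5a2, Col12a1 and Col14a1. For Col3a1 mutant IVD was first (0.61 ± 1.03, SD, n = 4), next to control IVD (0.58 ± 0.88, SD, n = 3). For Col1a2 mutant vertebrae were first (0.16 ± 0.91, SD, n = 3) and control IVD last (-0.36 ± 0.76, SD, n = 3). Neighbouring groups in these orders differed by less than the SD of at least 1 of them, except control IVD and control vertebrae (-0.55 ± 0.50, SD, n = 3) for Col3a1, whose arrays overlapped.

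The first comparison asked which collagens distinguished the presumptive disc from the presumptive vertebrae without mutation. Control IVD had the higher mean, relative to control vertebrae, for 6 of the 7 genes (47.8% of all genes had a higher mean), with a median log2 difference of 0.97 against -0.01 for all genes. By gene, the differences were 1.25 for Col5a2 (standard error 0.93), 1.13 for Col3a1 (0.86), 1.06 for Col14a1 (0.52), 0.97 for Col1a1 (0.63), 0.72 for Col5a1 (0.39) and 0.40 for Col12a1 (0.25). Col1a2 was the exception at -0.12 (0.46). Col1a1, Col5a1, Col12a1 and Col14a1 had no overlap between tissues, 4 of 7 genes, where 4.24% of all genes had none in this direction. For Col12a1 this held for the gene value only, since each of its 4 probe sets overlapped between the control tissues. At least 2-fold higher means were found for Col3a1, Col5a2 and Col14a1, 3 of 7 against 0.737% of all genes. No member passed the test. Every adjusted p was 1 over all genes and over all probe sets, and 0 of the 7 genes had an unadjusted p under 0.05 in limma (1.61% of all genes were higher at that threshold). For Col14a1 the direction is not independent evidence, since the study chose it as a disc gene on these arrays.

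At the level of single probe sets, 15 of 19 had a higher mean in control IVD (46.3% of all probe sets), 6 were at least 2-fold higher (0.864%), 6 had no overlap (3.54%) and 1 had an unadjusted p under 0.05 (1.25%). That probe set was 1428455_at of Col14a1, with a difference of 1.51 (standard error 0.64, adjusted p of 1). All 3 probe sets of Col1a2 pointed the other way, by -0.06 to -0.22. For the whole array limma called 0 probe sets at an adjusted p under 0.05, which is 0%, with 1105 at an unadjusted p under 0.05.

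Control mice were shared between tissues, but the labels do not say which, and equal array numbers were read as 1 mouse. Col14a1 was then higher in IVD by 0.77, 1.23 and 1.17 in the 3 pairs, Col1a1 by 0.86, 1.43 and 0.62, and Col5a1 by 0.46, 0.97 and 0.75. Col12a1 had the most even pair differences, of 0.43, 0.43 and 0.34, but this held for the gene value, a mean of unlike probe sets. By probe set, the differences were 1.37, 1.19 and 1.04 for 1434411_at and 0.35, 0.68 and 0.14 for 1427391_a_at. They were -0.04, -0.16 and 0.13 for 1440101_at and 0.04, 0.02 and 0.05 for 1445751_at. The pair differences of Col3a1 (1.14, 1.9996 and 0.25) and Col5a2 (1.12, 2.47 and 0.16) were wide. Thus 6 of 7 genes were higher in all 3 pairs, against 17.6% of all genes, and 14 of 19 probe sets, against 15.7%. Col1a2 differed by -0.23, 0.38 and -0.50 and had no common direction.

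With the pair as a random block in the control arrays, 6 of 7 genes were higher at an unadjusted p under 0.05 (7.14% of all genes) and 12 of 19 probe sets (5.69%). The adjusted p was 0.0577 for Col14a1, 0.0903 for Col1a1, 0.133 for Col5a1, 0.202 for Col12a1, 0.263 for Col3a1, 0.284 for Col5a2 and 0.889 for Col1a2, so that no member passed here either. This fit called 42 probe sets of the array (0.0933%). When array numbers formed a fixed block across all 13 arrays, every adjusted p of the members was 1. That fit also blocked the mutant arrays, which their numbers did not pair, so it is no test of the control pairs alone.

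**Figure D2:**
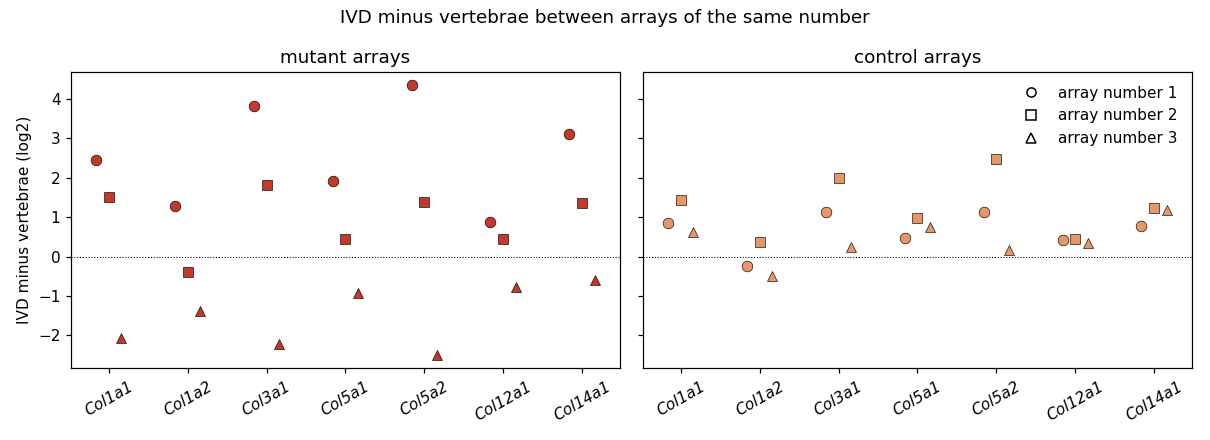
Log2 difference between IVD and vertebrae arrays of the same number (vertical axis) for each gene, in mutant arrays (left) and control arrays (right), 1 symbol per array number. In control arrays 6 genes lie above 0 at every number, whereas mutant arrays of number 3 lie below 0 for every gene, and the mutant numbers did not pair the arrays.

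Across arrays left out 1 at a time, the median difference of the 7 genes between control tissues ranged between 0.72 (without control IVD 2) and 1.14 (without control IVD 3). Col3a1, Col5a1, Col5a2, Col1a1, Col12a1 and Col14a1 kept a higher mean in IVD in each of these fits, whereas Col1a2 was higher by 0.12 without control vertebrae 1 and by 0.32 without control IVD 3. Without the 4 arrays that held liver transcripts the median was 1.02.

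The chains of type I collagen are made as a trimer of both gene products, so their balance was followed array by array. The comparison was chosen after the values were seen. Col1a1 minus Col1a2 was 0.63, 0.22, -0.60 and 0.77 in mutant IVD and 0.36, 0.78 and 1.26 in control IVD. It was -0.54, -1.68 and 0.07 in mutant vertebrae and -0.73, -0.28 and 0.14 in control vertebrae. Control IVD exceeded control vertebrae in every array, by 1.09 on average (two-sided exact permutation p = 0.1, the smallest that 3 arrays against 3 allow). In the control pairs of equal number it was higher in IVD by 1.09, 1.05 and 1.11 (SD 0.029, n = 3). This evenness held for the mean of the 2 Col1a1 probe sets only, since their order changed between pairs. Against control vertebrae, 1423669_at was higher by 0.72, 1.34 and 0.91 in these pairs, and 1455494_at by 1.004, 1.53 and 0.32. The evenness is therefore no evidence of a constant balance of the chains. For Col1a1 minus Col1a2, a two-sided exact permutation test that flipped signs within pairs gave p = 0.25, the smallest that 3 pairs allow. In mutant IVD against mutant vertebrae the difference was 0.97 with overlap (two-sided exact permutation p = 0.143), and in mutant IVD against control IVD it was -0.54 (two-sided exact permutation p = 0.257).

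In mutant IVD against control IVD, the comparison of receptor loss in the disc, none of the 7 genes passed the test. Col14a1 had the largest difference of the 7, -0.69 (standard error 0.48), and Col5a2 was at -0.42 (0.87), Col12a1 at -0.22 (0.23), Col1a1 at -0.16 (0.59) and Col5a1 at -0.03 (0.37). Col3a1 was at 0.03 (0.80) and Col1a2 at 0.39 (0.43). The study had named Col14a1 as lower in mutant IVD on these arrays, so the direction of Col14a1 is not independent evidence. The probe sets of Col14a1 were unequal here. Its probe sets 1428455_at and 1427168_a_at were at -1.17 (standard error 0.59) and -0.98 (0.80), with mutant and control arrays that overlapped, and 1453931_at was at 0.09 (0.27). The probe set 1428455_at was the only 1 of 19 with a mean at least 2-fold lower in mutant IVD, against 0.384% of all probe sets. Mutant and control IVD overlapped for all 7 genes (3.58% of all genes were higher and 0.951% lower with no overlap), and the control IVD arrays are those of the comparison of control tissues. Differences as large as 2-fold in either direction were inside the 95% confidence intervals of Col3a1 (-1.71 to 1.77), Col1a1 (-1.44 to 1.13) and Col5a2 (-2.31 to 1.47). For Col5a1 the interval was -0.84 to 0.77.

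None of the 7 genes and 0 of the 19 probe sets had an unadjusted p under 0.05 in this comparison, where 2.06% of all genes were higher and 0.951% lower, and 2.28% of all probe sets were higher and 0.848% lower. All adjusted p-values were 1, and limma called 0 probe sets over the array (0%), with 1411 at an unadjusted p under 0.05. The median difference of the members was -0.16 against 0.04 for all genes. It was 0.23 without mutant IVD 3 and 0.24 without the 4 arrays that held liver transcripts, and 0.09 without control IVD 2, so its sign rested on single arrays. Without mutant IVD 3 the differences were 0.27 for Col1a1, 0.23 for Col5a1, 0.54 for Col3a1 and 0.04 for Col5a2, and that of Col14a1 was -0.36. In mutant IVD 3 none of the 7 genes was above 0 and the mean of the 7 was -0.71, in the array where the 15 neuronal genes averaged 3.06 and the 9 liver genes 2.65. The part of these transcripts in the collagen values was not tested.

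In mutant against control vertebrae none of the 7 genes passed the test. Col14a1 was at -0.86 (standard error 0.52), Col5a2 at -0.38 (0.93) and Col3a1 at -0.22 (0.86). Col1a1 was at -0.02 (0.63), Col12a1 at 0.04 (0.25), Col5a1 at 0.26 (0.39) and Col1a2 at 0.41 (0.46). Groups overlapped for all 7 genes (3.26% of all genes were higher and 2.07% lower with no overlap), the smallest adjusted p was 0.999 over genes, and 0 of 19 probe sets had an unadjusted p under 0.05 (1.74% of all probe sets higher, 0.873% lower). This comparison and that of the IVD share no arrays, but the control vertebrae also enter the comparison of control tissues.

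The mean of the 7 genes was -1.62, -0.56 and 0.78 in mutant vertebrae 1 to 3, against -0.15, -0.38 and -0.54 in control vertebrae. The mutant arrays thus lay on both sides of all control arrays. Without mutant vertebrae 1 the median difference was 0.55, and without mutant vertebrae 3 it was -0.83. Col5a2 was at 0.74 and Col3a1 at 0.72 without mutant vertebrae 1, and at -1.54 and -1.26 without mutant vertebrae 3. Col14a1 stayed below 0 in each fit with 1 array left out, at -0.22 without mutant vertebrae 1 and -1.28 without mutant vertebrae 3.

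Between tissues of the mutant, Col14a1 had a mean higher by 1.23 in IVD (standard error 0.48, adjusted p = 0.509 in limma). The other differences were 1.38 for Col3a1 (0.80), 1.21 for Col5a2 (0.87), 0.83 for Col1a1 (0.59), 0.43 for Col5a1 (0.37), 0.15 for Col12a1 (0.23) and -0.14 for Col1a2 (0.43). Means were higher for 6 of 7 genes (50.1% of all genes), and the median was 0.83 against 0.00 for all genes. All 7 genes overlapped between these groups (4.08% of all genes were higher with no overlap), and 1 of 7 had an unadjusted p under 0.05 and a higher mean (4.83% of all genes). Of the probe sets, 1427168_a_at (difference 2.04) and 1428455_at (1.32) of Col14a1 were higher at that threshold, 2 of 19 against 4.35% of all. The Col12a1 probe set 1445751_at was lower (-0.31), 1 of 19 against 3.72%. After adjustment 7 probe sets (0.0155%) and 5 genes (0.0275%) were called over the whole array, and none of them was a member.

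The excess in mutant IVD rested on the vertebrae arrays. Without mutant vertebrae 1 the median difference was 0.14, with Col14a1 at 0.59, Col3a1 at 0.44 and Col5a2 at 0.09. Without mutant vertebrae 3 it was 1.64, and without mutant IVD 3 it was 1.26. With array weights it was -0.07, with Col14a1 at 0.52.

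The tissue by genotype term asked whether the difference between mutant and control differed between IVD and vertebrae. It ranged between -0.29 for Col5a1 (standard error 0.54) and 0.25 for Col3a1 (1.17), with a median of -0.04, and 0 of 7 genes had an unadjusted p under 0.05 (0.841% of all genes higher, 0.561% lower). For Col14a1 it was 0.17 (0.71), with a 95% confidence interval of -1.37 to 1.71.

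**Figure D3:**
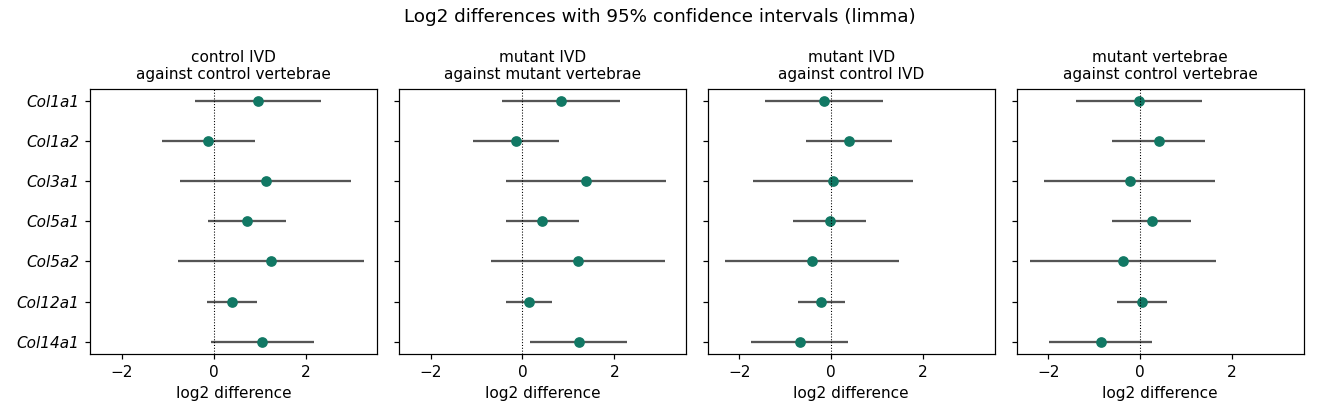
Log2 differences (horizontal axis) of the 7 genes with 95% confidence intervals from limma, for the tissue comparisons in control and mutant arrays and the genotype comparisons in IVD and vertebrae. Intervals hold 0 for every gene except Col14a1 in mutant IVD against mutant vertebrae (0.17 to 2.28), whose adjusted p was 0.509.

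Probe sets of a gene agreed closely for Col3a1 (r = 0.95 over 13 arrays), Col5a2 (0.95) and Col1a2 (0.90 to 0.93), and less for Col1a1 (0.61). The 4 probe sets of Col12a1 did not vary together. Its probe set 1434411_at spanned 4.59 over the arrays and differed by 1.20 between control tissues (standard error 0.86), whereas 1427391_a_at, 1440101_at and 1445751_at spanned 1.62, 1.002 and 0.67 and differed by 0.39, -0.02 and 0.04. The gene value of Col12a1 therefore understated the movement of 1434411_at. For Col14a1, 1427168_a_at and 1428455_at agreed (r = 0.96) and differed by 1.51 each between control tissues, while 1453931_at spanned 1.30 and differed by 0.16. With the median of probe sets in place of the mean, the control difference was 1.40 for Col14a1 and 0.23 for Col12a1. Since values are centred, whether the still probe sets detected their transcripts cannot be known.

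**Figure D4:**
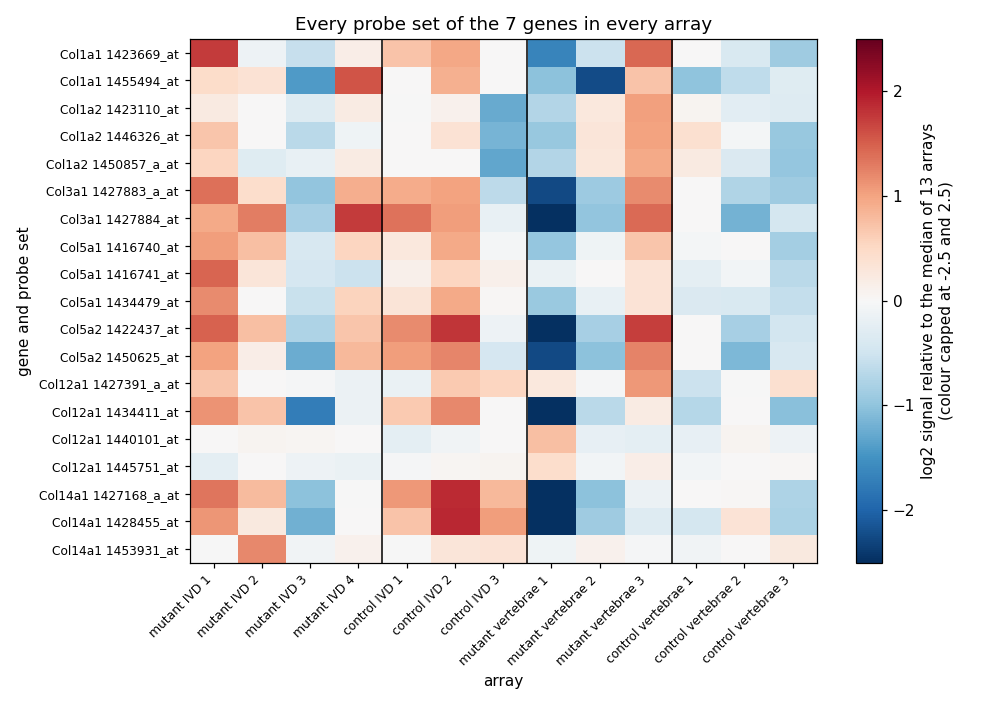
Log2 signal of each of the 19 probe sets (rows) in each of the 13 arrays (columns), relative to the median of the arrays, with colours capped at -2.5 and 2.5. Probe sets 1440101_at and 1445751_at of Col12a1 and 1453931_at of Col14a1 stay near 0 in nearly all arrays, while 1427168_a_at of Col14a1 spans 6.01.

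Across the 13 arrays the members moved together, as a description of arrays that share RNA inputs and the low values of mutant vertebrae 1. Col3a1 and Col5a2, which lie 24.6 kb apart on chromosome 1 in the RefSeq annotation, were the most alike of the 21 pairs (r = 0.98, and 0.96 without mutant vertebrae 1). Col1a1 followed Col3a1 (r = 0.90) and Col5a2 (0.89) more closely than Col1a2, its partner in the trimer (0.50). Col1a2 was least like Col14a1 (0.25, and -0.02 without mutant vertebrae 1). After group means were removed, Col1a1 and Col1a2 had r = 0.71.

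Over all genes that are no member, the profiles most like the mean of the 7 collagens were those of Zcchc24 (r = 0.97), Postn (0.96), Svil (0.94), Pcdh18 (0.93), Acot9 (0.92) and Ccn4 (0.92), over 13 arrays. Postn encodes periostin, a collagen-binding matrix protein, Ccn4 a secreted matricellular protein and Pcdh18 a protocadherin. Col14a1 was most like Adamts6 (0.96) and Adgrg6 (0.95), Col12a1 most like Ccdc80 (0.92) and Bgn (0.90), and Col5a1 most like Cavin3 (0.95) and Tmem109 (0.93). Col1a1 was most like Ackr3 (0.92) and Pcsk5 (0.91). Col1a2 had weaker partners, Hmgn1 (0.88) and Nid1 (0.87).

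Collagen VI had the direction of the fibrous collagens between control tissues, and the cartilage collagens had the opposite one. Differences between the classes were not tested. The beaded-filament chains Col6a1, Col6a2 and Col6a3 had differences of 2.19, 1.98 and 2.01 between control IVD and control vertebrae (adjusted p of 1 each), and 3 of 3 had an unadjusted p under 0.05 and a higher mean, against 1.61% of all genes. The study chose all 3 as disc genes on these arrays, so their direction and this count are not independent evidence. Of 8 cartilage collagens 7 had lower means in control IVD (median -0.70, 52.2% of all genes had lower means), 2 of them at an unadjusted p under 0.05 (1.07% of all genes), Col9a3 (-0.80) and Col9a2 (-0.79). Of 6 other fibrous collagens measured, 5 had lower means, with a median of -0.16 and 0 at that threshold. The mean of the 7 fibrous collagens minus that of the 8 cartilage collagens was 1.30, 0.82 and 0.32 in control IVD, against -0.23, -0.97 and -0.43 in control vertebrae. These groups did not overlap. Mutant IVD had 1.05, 1.11, -0.75 and 1.60, and mutant vertebrae -1.98, -1.20 and 0.36, and these overlapped through mutant IVD 3 and mutant vertebrae 3.

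**Figure D5:**
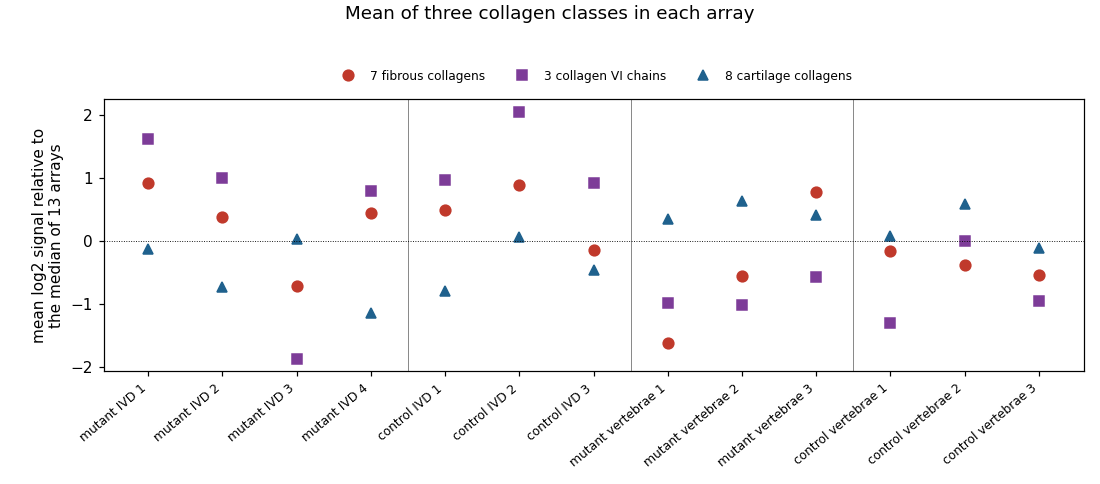
Mean log2 value (vertical axis, relative to the median of 13 arrays) of the 7 fibrous collagens, the 3 collagen VI chains and the 8 cartilage collagens in each array. In mutant vertebrae 3 the fibrous collagens are high (0.78) where collagen VI is low (-0.56), and in mutant IVD 3 both are low (-0.71 and -1.87).

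Genes that make, bind and remove collagen were mixed. Over all genes 47.8% had a higher mean in control IVD, 1.61% were higher at an unadjusted p under 0.05 and 1.07% lower. Of 18 genes of collagen hydroxylation and folding, 8 had higher means in control IVD than in control vertebrae, with 1 higher at an unadjusted p under 0.05, P3h2, a prolyl 3-hydroxylase (1.46, standard error 0.40). Of 10 genes of procollagen cleavage and cross-linking 7 were higher, with 1 at that threshold, the lysyl oxidase Loxl1 (1.17, 0.47). Of 6 collagen receptors 3 were higher, and Itga10, an integrin of chondrocytes that binds type II collagen, was lower at that threshold (-2.09, 0.77). Of 11 genes of collagen breakdown 6 were higher, with the protease inhibitors Timp2 (0.48, 0.20) and Timp3 (0.51, 0.20) at that threshold. Fibril-binding proteins had higher means in 14 of 18 cases, 4 at an unadjusted p under 0.05. These were Aspn (2.86, 0.87), Dpt (2.71, 1.004), Ogn (2.35, 0.90) and Tgfbi (1.93, 0.71), and 1, Comp of cartilage, was lower (-2.18, 0.99). None of these genes passed after adjustment. The lists were chosen with earlier results of these arrays known.

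In mutant IVD against control IVD, 15 of the 18 hydroxylation and folding genes had lower means (median -0.16, against 41.8% of all genes with lower means) and 0 had an unadjusted p under 0.05, and 13 of the 18 fibril-binding genes had lower means (median -0.29). Aspn, which encodes asporin, a collagen-binding proteoglycan that also binds TGF-β, was lower at that threshold (-2.31, standard error 0.81, adjusted p of 1 in limma). It was 1 of the 18 fibril-binding genes, against 0.951% of all genes lower at that threshold. The collagen VI chains were at -1.12, -0.89 and -0.76 for Col6a1, Col6a2 and Col6a3, beside -0.69 for Col14a1, and 0 of these 4 had an unadjusted p under 0.05. Of markers of other cells, all 15 neuronal genes had higher means in mutant IVD (median 0.81, against 58.2% of all genes with higher means), and 0 of them had an unadjusted p under 0.05. Their mean was 3.06 in mutant IVD 3 and -0.09, -0.77 and 0.62 in the other mutant IVD arrays, against 0.64, -0.89 and -0.20 in control IVD, so that only mutant IVD 3 lay above the control arrays. Of 12 endothelial genes 11 had higher means (median 0.31), 2 at an unadjusted p under 0.05 (2.06% of all genes), and their mean overlapped between the groups.

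In the control arrays the chondrocyte markers followed the labels, and those of the notochord were mixed. For comparison, 52.2% of all genes had lower means in control IVD than in control vertebrae and 47.8% higher means. At an unadjusted p under 0.05, 1.07% of all genes were lower and 1.61% higher. Of 12 chondrocyte markers 10 had lower means in control IVD than in control vertebrae (median -0.85), 4 at an unadjusted p under 0.05, with the cartilage matrix gene Matn1 at -3.41 (standard error 0.84). The mean of these markers was -1.35 to 0.05 in control IVD and -0.01 to 1.10 in control vertebrae. Of 6 notochord genes measured 4 had higher means in control IVD (median 0.27), among them Krt19, a keratin (1.03, standard error 0.45), and 2 lower, among them Foxa2, a transcription factor of notochord and floor plate (-1.48, 0.42), whose control groups did not overlap. Both passed an unadjusted p of 0.05 and neither passed after adjustment. All 15 neuronal markers had lower means (median -0.84), with means of -0.89 to 0.64 in control IVD and -0.65 to 2.42 in control vertebrae, and 13 of 15 skeletal muscle markers had higher means (median 0.46), with means of -0.16 to 1.91 and -0.11 to 0.51. The part of these cells in the collagen differences was not tested, and no marker can be called absent from centred values.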

How the data were processed

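RNA was amplified in 2 cycles from oligo-dT primers, which favours 3′ ends, and hybridised separately per sample. The authors computed log2 values with RMA, and the deposited values are log2 signals whose median over the 13 arrays was 0 for every probe set, so neither level nor background can be read from them, and precision is limited by how many arrays there are. No filter on dim probe sets was therefore run. After 64 control probe sets were left out, limma 3.58.1 in R 4.3.3 fitted 1 model with the 4 groups to 45037 probe sets (Python 3.11.15 for sequences and figures), by two-sided tests and Benjamini-Hochberg adjustment. In the platform annotation 34945 probe sets had 1 gene symbol, 932 several and 9160 none. Gene values, for 18193 genes, are means of probe sets with 1 symbol, since centred values hold no level to choose by. Of 199 genes on the 19 lists used beside the members, each gene counted once over all lists, 183 were measured.

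The members and lists were chosen with earlier results of these data known. The text names all members, up to 4 genes of each list with the smallest p in control IVD against control vertebrae and in mutant IVD against control IVD, 6 genes most like the mean of the members and 2 per member.

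Labels give same-numbered arrays in all groups. Once group means had been subtracted, same-numbered control IVD and vertebrae correlated over probe sets with r = 0.80, 0.57 and 0.57, and they come from the same mice by the design, so the numbers were taken as pairs. Mutant numbers (r = -0.40, 0.24 and -0.15) did not pair the arrays. The consensus correlation of the random block was 0.54 over probe sets. Replicates were separate biological samples per the labels.

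Alternatives were array weights, quantile normalization, fixed and random replicate blocks, robust estimation of a variance trend, fits of only 2 groups, the methods' analysis of variance with unequal variances, the median of probe sets, and leaving out each array or the 4 arrays with liver transcripts. Leaving out mutant vertebrae 1 and mutant IVD 3 together, and the exact test within control pairs, were added after the data were seen. In simulated data for control IVD against control vertebrae over 45037 probe sets, the fit called 27 of 100 shifted by 1 on the log2 scale, 74 of 100 shifted by 2, and 5 of 44837 unchanged. The shifted probe sets were drawn at random from the whole array and had independent noise, so these counts do not give the power for the members.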

Additional observations from a re-analysis of the deposited data

Results flagged for a closer look

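The Col14a1 probe set 1453931_at had a value of 1.20 in mutant IVD 2, far above the other 3 mutant IVD arrays (-0.09 to 0.10), and the other probe sets of the gene were not marked. Its gap to the nearest array exceeded the limit for an outlier in a group of 4. Such a test flags about 1 in 20 groups by chance.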

How the results depend on the processing

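None of the 7 genes passed an adjusted p of 0.05 under any alternative run, and single probe sets were looked up only in the fits with a replicate block, where none passed. The differences between control tissues kept their direction in every fit for Col1a1, Col3a1, Col5a1, Col5a2, Col12a1 and Col14a1, and Col14a1 kept its direction in mutant IVD and in mutant vertebrae against their controls. The replicate block changed no call of a member. The causes of the changes below were not tested, except that fits without arrays hold fewer arrays.

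Member probe sets at an unadjusted p under 0.05 between control tissues (1 with all groups fitted, beside 2.45% of all probe sets) were 9 in a fit of the 2 groups alone (3.95%), 12 with the random replicate block (10.8%), 3 after quantile normalization (4.19%), 0 with a variance trend (0.759%), 4 with array weights (7.25%), 2 by the methods' test (2.43%), 0 without the 4 arrays with liver transcripts (2.89%), and 0 to 1 with single arrays left out (1.5% to 4.73%, and 0 without control vertebrae 1, control vertebrae 3 or control IVD 2). Probe sets called over the array were 42 with the random replicate block and 2 with array weights, against 0. Col1a2 was at 0.13 with array weights and -0.37 to 0.32 with single arrays left out.

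In mutant IVD against control IVD, member probe sets at that threshold (0 with all groups fitted, beside 3.13% of all) were 1 after quantile normalization (4.33%), 2 with array weights (7.73%) and 1 by the methods' test (3.12%), and 0 to 1 with single arrays left out (2.01% to 4.52%, and 1 without mutant IVD 1). Col1a1, Col5a1 and Col5a2 were at 0.14, 0.36 and 0.24 without the arrays with liver transcripts, and at 0.27, 0.23 and 0.037 without mutant vertebrae 1 and mutant IVD 3. Col3a1 was at -0.15 with array weights and -0.21 with the fixed replicate block, where Col5a1 was at 0.012. With single arrays left out the ranges were -0.43 to 0.27 for Col1a1, -0.053 to 0.64 for Col1a2, -0.47 to 0.54 for Col3a1, -0.33 to 0.23 for Col5a1 and -0.95 to 0.037 for Col5a2.

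In mutant against control vertebrae, array weights gave 2 member probe sets at that threshold (5.71% of all, against 2.61% with all groups fitted) and a median of the 7 genes of 0.90, with Col1a1 at 0.90, Col3a1 at 1.28 and Col5a2 at 1.33. Quantile normalization gave 0.35, 0.17 and 0.041 for these genes, and leaving out mutant vertebrae 1 and mutant IVD 3 gave 0.37, 0.72 and 0.74. Without the arrays with liver transcripts Col3a1 was at 0.052 and Col12a1 at -0.059. With single arrays left out there were 0 to 2 member probe sets (1.75% to 4.67% of all, and 2 without mutant vertebrae 3), the median was -0.83 to 0.55, and the ranges were -0.83 to 0.40 for Col1a1, -0.011 to 0.89 for Col1a2, -1.26 to 0.72 for Col3a1, -0.026 to 0.55 for Col5a1, -1.54 to 0.74 for Col5a2 and -0.18 to 0.21 for Col12a1.

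Between mutant tissues, where 7 probe sets were called over the array, there were 0 in the fit of the 2 groups, 0 with a variance trend, 0 by the methods' test, 0 with the fixed replicate block, 55 with array weights, 29 without the arrays with liver transcripts, 78 without mutant vertebrae 1 and mutant IVD 3, and 0 to 177 with single arrays left out (177 without mutant IVD 3). Member probe sets at an unadjusted p under 0.05 (3 in the fit of all groups, beside 8.07% of all) were 0 in the fit of the 2 groups (6.81%) and by the methods' test (4.17%), 1 after quantile normalization (6.91%), with a variance trend (6.32%), with array weights (11.6%) and with the fixed replicate block (7.85%), and 0 to 10 with single arrays left out (6.84% to 9.92%, and 10 without mutant vertebrae 3, 7 without mutant IVD 3, 0 without mutant vertebrae 1 or mutant IVD 1). With array weights the median was -0.073, Col1a1 was at -0.073, Col5a2 at -0.35 and Col12a1 at -0.15. Col12a1 was at -0.091 with the median of its probe sets, and Col1a2 at 0.030 without the arrays with liver transcripts. With single arrays left out the median was 0.14 to 1.64, Col12a1 -0.025 to 0.37 and Col1a2 -0.62 to 0.28.

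The tissue by genotype term had 1 member probe set at that threshold (5.16% of all, against 1.37% with all groups fitted) and a median of -0.87 with array weights, with Col3a1 at -1.43 and Col14a1 at -0.66. They were at -0.12 and -0.23 after quantile normalization and at -0.18 and -0.14 without mutant vertebrae 1 and mutant IVD 3, and Col5a1 was at 0.039 without the arrays with liver transcripts. With single arrays left out there were 0 to 1 member probe sets (0.844% to 2.28% of all, and 1 without mutant vertebrae 2 or mutant IVD 1), and Col3a1 ran between -0.69 and 1.29 and Col14a1 between -0.47 and 0.59.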

Other observations

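Tendon and ligament genes, which mark tissue built on type I fibrils, had no common direction between control tissues. Of 7 genes 3 had higher means in control IVD than in control vertebrae (median -0.03), against 47.8% of all genes. These were Mkx, a transcription factor of tendon, at 2.10 (standard error 1.07), Thbs4, a thrombospondin of tendon matrix, at 0.59 (0.30) and Scx, a transcription factor of tendon progenitors, at 0.38 (0.22). In mutant IVD against mutant vertebrae 5 of 7 had higher means (median 0.26), against 50.1% of all genes, and 2 were higher at an unadjusted p under 0.05, against 4.83%. Osteoblast genes, of which 5 were measured, had lower means in control IVD for 4 of 5 (median -0.11), against 52.2% of all genes. Among them Sp7, a transcription factor of osteoblasts, was at -0.55 (0.28). All adjusted p-values between control tissues were 1.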
